A study of Rattus norvegicus with 167 samples.

Results

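The proteasome genes of the rat spinal cord were followed after complete transection. Their members were all genes that had a probe set with a single symbol made of Psm, a letter from a to g and a number. There were 46 such genes among the 14218 genes with a single-symbol probe set, and 12041 of these genes, all 46 members included, passed a filter on low values. Each gene was read from its probe set with the highest mean, and 9 of the 46 had more than 1 probe set. The members comprised 7 alpha subunits and 6 standard beta subunits of the 20S core, 6 ATPases (Psmc) and 14 Psmd subunits or partners of the 19S cap, 4 assembly chaperones of the core (Psmg), and Psme4 and Psmf1. The immunoproteasome subunits Psmb8, Psmb9 and Psmb10 and the PA28 activator subunits Psme1 and Psme2 were described apart, as a group of 5. Psmc3ip and Psme3ip1 carry matching symbols but encode a meiotic recombination factor and a nuclear PA28-gamma partner, and were kept out of both groups, which left 39 standard genes.

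The proteasome is the main protease of the cytosol and nucleus. Its 20S core is a barrel of stacked alpha and beta rings with the catalytic sites inside, and the 19S cap recognises ubiquitin-tagged proteins, unfolds them with its ring of ATPases and feeds them into the core. Cells exposed to interferons, and cells of the immune system, replace the catalytic subunits Psmb6, Psmb7 and Psmb5 with Psmb9, Psmb10 and Psmb8, and PA28, a ring of Psme1 and Psme2, can dock on the core in place of the cap. The peptides that result are loaded on major histocompatibility complex (MHC) class I molecules through Tap1, Tap2 and tapasin.

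The stretches around the transcription starts of these genes are shown because 3 of the group of 5 hold letters there that are known from interferon response elements, and Psmb5 and Psmb7 do not. Each line runs 5′ to 3′ from 90 bases before to the ninth base after the start, on the gene's own strand, from RefSeq on the GRCr8 build. Capitals mark GAAANNGAA, searched on both strands, and overlapping matches are drawn as 1 run.

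Psmb8: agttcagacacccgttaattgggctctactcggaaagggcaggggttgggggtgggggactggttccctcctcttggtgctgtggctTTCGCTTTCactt

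Psmb9: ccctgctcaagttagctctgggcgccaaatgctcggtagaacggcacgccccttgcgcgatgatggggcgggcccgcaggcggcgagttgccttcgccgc

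Psmb10: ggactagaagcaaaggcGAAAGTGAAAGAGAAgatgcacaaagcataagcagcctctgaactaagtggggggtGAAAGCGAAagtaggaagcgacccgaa

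Psme1: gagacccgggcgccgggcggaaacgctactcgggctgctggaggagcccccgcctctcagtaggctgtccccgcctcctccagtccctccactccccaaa

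Psme2: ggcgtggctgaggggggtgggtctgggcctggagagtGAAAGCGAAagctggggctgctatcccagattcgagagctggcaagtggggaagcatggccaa

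Psmb5: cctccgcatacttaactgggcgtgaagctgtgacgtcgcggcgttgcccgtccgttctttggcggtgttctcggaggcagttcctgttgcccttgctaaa

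Psmb7: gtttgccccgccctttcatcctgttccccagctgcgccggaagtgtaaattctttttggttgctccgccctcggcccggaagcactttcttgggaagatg

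The windows lie at chr20:4657022-4657121 (minus strand) for Psmb8, chr20:4668910-4669009 (plus) for Psmb9 and chr19:50743283-50743382 (minus) for Psmb10. Those of the PA28 genes lie at chr15:33038881-33038980 (plus) for Psme1 and chr15:33052742-33052841 (minus) for Psme2. Those of the constitutive genes lie at chr15:32047370-32047469 (minus) for Psmb5 and chr3:42827461-42827560 (minus) for Psmb7. Each window covers the upstream stretch and the first transcribed bases of the annotated start.

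In the stretch from 250 bases before to 50 after the start, 42 of the 46 members had a RefSeq entry. GAAANNGAA occurred there in Psmb8 (bases -3 to 5, on the reverse strand), in Psmb10 (-73 to -65, -67 to -59 and -17 to -9, the first pair overlapping) and in Psme2 (-53 to -45), and not in Psmb9 or Psme1. Among the standard genes it occurred in 6 of 35, namely Psma4, Psmb2, Psmb3, Psmd7, Psmd11 and Psmg4. Of all 33469 promoters of that length, 9.71% held it. TTCNNNGAA, the letters of a STAT site, occurred in Psmb8 (-245 to -237) and in 3 of 35 standard genes, against 8.87% of all promoters. Psmb9 and Tap1, the peptide transporter subunit, start 457 bases apart on chromosome 20 and are read in opposite directions. These matches are descriptions of letters, not of bound sites.

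Adult female Wistar rats had the cord cut completely at T7/8 with 5 mm of tissue removed. The gap was left alone (lesion control, LC), bridged with an empty 5 mm chitosan tube (ET), or bridged with a chitosan tube that carried neurotrophin-3 (NT3). Tissue came from the lesion site and from the 5 mm segments rostral and caudal to it, on days 1, 3, 10, 20, 30, 60 and 90, with the lesion site sampled from day 3 and its ET arm sampled on day 3 only. The Affymetrix arrays formed 56 groups of 3, except for a rostral ET group of 2 on day 10. Rostral cord had 21 LC, 20 ET and 21 NT3 arrays, the lesion site 18, 3 and 18, and caudal cord 21 of each, and 3 arrays were of uninjured cord.

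Values are log2 array signals, so a difference of 1 is a 2-fold change, and array medians ran from 7.10 to 7.25. All injury comparisons share their 3 uninjured arrays, and the NT3 and ET comparisons share their LC arrays. Whether the arrays of a group came from different animals is not stated in the labels; the p-values therefore cover the variation among these arrays, which may be technical. A gene is said to rise, fall or differ where limma's p, adjusted by Benjamini-Hochberg over all 12041 genes, was under 0.05. The beta-actin 3′ signal exceeded the 5′ signal by 1.72 ± 0.505 (SD, n = 3) in uninjured cord. In rostral, lesion-site and caudal LC arrays the excess was 1.07, 1.17 and 1.00 on average. This sign of RNA quality went with injury, and its part in the injury comparisons was not tested. With it as a covariate no call for the group of 5 was lost, but that fit cannot tell it apart from injury. In 3 arrays (LC lesion site day 20 replicate 5, NT3 lesion site day 3 replicate 1 and uninjured replicate 2) the signals stood apart from their groups. RT1-CE10, a class I gene of the rat MHC, was above 9 in 58 arrays and below it in 109, with uninjured values of 6.49 to 6.68. Neuronal markers at the lesion site averaged 3.27 to 5.29 below uninjured cord in LC, so the tissue sampled there held little neuronal RNA. In such bulk samples, fewer cells of a type and less RNA per cell cannot be told apart.

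The immunoproteasome catalytic subunits rose in every segment and period of LC cord, with the exception of Psmb10 in late caudal cord. Psmb8 and Psmb9 showed the largest differences, at least 1.52 in each comparison, and their signals at the lesion site were higher than those of its neighbours from day 10. Psmb8, the immunoproteasome counterpart of Psmb5, measured 7.64, 7.62 and 7.86 in the uninjured arrays. In LC cord its lesion-site arrays read 9.79, 9.63 and 9.94 on day 3, 11.29, 11.30 and 11.06 on day 20, and 9.83, 10.27 and 9.89 on day 90. No LC array of any segment overlapped the uninjured arrays, since the lowest was 8.66, in rostral cord on day 1. The difference from uninjured cord at the lesion site was 2.08 (SE 0.148, limma adjusted p = 4.7e-14) on day 3, 2.89 (SE 0.121, adjusted p = 2.9e-20) on days 10 to 30, and 2.48 (SE 0.128, adjusted p = 9.8e-18) on days 60 and 90. In rostral cord it was 1.65, 1.92 and 1.53 over days 1 and 3, days 10 to 30 and days 60 and 90, and in caudal cord 1.67, 1.90 and 1.52, with SEs of 0.152 to 0.173.

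Psmb9, the counterpart of Psmb6, measured 7.21, 7.72 and 7.75 in uninjured cord. Its lesion-site LC arrays read 9.63, 9.47 and 9.88 on day 3, 11.61, 11.49 and 11.43 on day 20, and 10.26, 10.83 and 10.64 on day 90. The lowest LC value in any segment, 8.56 in caudal cord on day 60, was above all uninjured values. The lesion-site differences were 2.10 (SE 0.215, limma adjusted p = 2.2e-10), 3.26 (SE 0.175, adjusted p = 2.1e-17) and 3.06 (SE 0.186, adjusted p = 7.1e-16) for the 3 periods. Rostral cord gave 2.16, 2.11 and 1.98, and caudal cord 2.20, 2.07 and 1.67.

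Psmb10, the counterpart of Psmb7, moved less. Its uninjured arrays read 8.52, 9.18 and 8.99 and its lesion-site LC arrays read 9.53, 9.35 and 9.70 on day 3 and 10.41, 10.49 and 10.44 on day 20. Caudal LC arrays on day 90, at 9.13, 9.08 and 9.34, overlapped the uninjured range. The differences were 0.63 (limma adjusted p = 0.00089), 1.02 (2.6e-08) and 0.70 (4.4e-05) at the lesion site, and 0.93, 0.72 and 0.45 in rostral cord. In caudal cord they were 1.01 and 0.68, and then 0.31 (SE 0.15, adjusted p = 0.072) on days 60 and 90, which did not pass. Without the 3 arrays that stood apart that late caudal difference was 0.46 (adjusted p = 0.024). The late rostral difference was 0.26 (adjusted p = 0.17) without uninjured replicate 1. It was 0.34 (adjusted p = 0.092) over arrays with low RT1-CE10, which left day 60 alone.

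The PA28 subunits rose in all 9 comparisons. Psme1, the alpha subunit, measured 10.41, 10.60 and 10.77 in uninjured cord and 12.30, 12.35 and 12.31 at the lesion site of LC cord on day 20. Every LC array, at 11.25 or more, was above the uninjured arrays. Its differences were 1.06 (SE 0.127, limma adjusted p = 6.9e-09), 1.41 (SE 0.104, adjusted p = 6.4e-14) and 1.52 (SE 0.11, adjusted p = 5.5e-14) at the lesion site, and 1.00 to 1.25 in the segments beside it. A dimmer second probe set of Psme1 was above the 40th percentile in 37 arrays only. It gave 0.15 at the lesion site on days 10 to 30 and -0.06 in early caudal cord. Psme2, the beta subunit, measured 9.73, 10.03 and 10.04 in uninjured cord and 11.81, 11.81 and 11.72 at the lesion site on day 20. Its differences were 0.92, 1.33 and 0.98 at the lesion site. In caudal cord they were 1.15, 0.80 and 0.37, the last with an SE of 0.135 and adjusted p of 0.018, or 0.27 (adjusted p = 0.14) without uninjured replicate 1.

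Macrophage and T cell markers were also higher at the LC lesion site than in uninjured cord. The 7 macrophage markers averaged 2.58, 2.89, 3.07, 2.62, 2.32 and 1.96 above uninjured cord at the LC lesion site on days 3, 10, 20, 30, 60 and 90, and 1.45 to 2.65 above it in the segments beside it. The 6 T cell markers, with uninjured means of 4.61 to 6.42 below the array medians, averaged 1.21, 1.89, 3.24, 2.38, 1.91 and 1.43 above uninjured cord on the same days, and 0.00 to 1.29 in the neighbouring segments. Both lists were highest at the lesion site on day 20. From day 3 to day 90 the macrophage average went down there, while the means of Psmb8 and Psmb9 went up. The part of these cell types in the levels of the 5 genes was not tested.

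**Figure D1:**
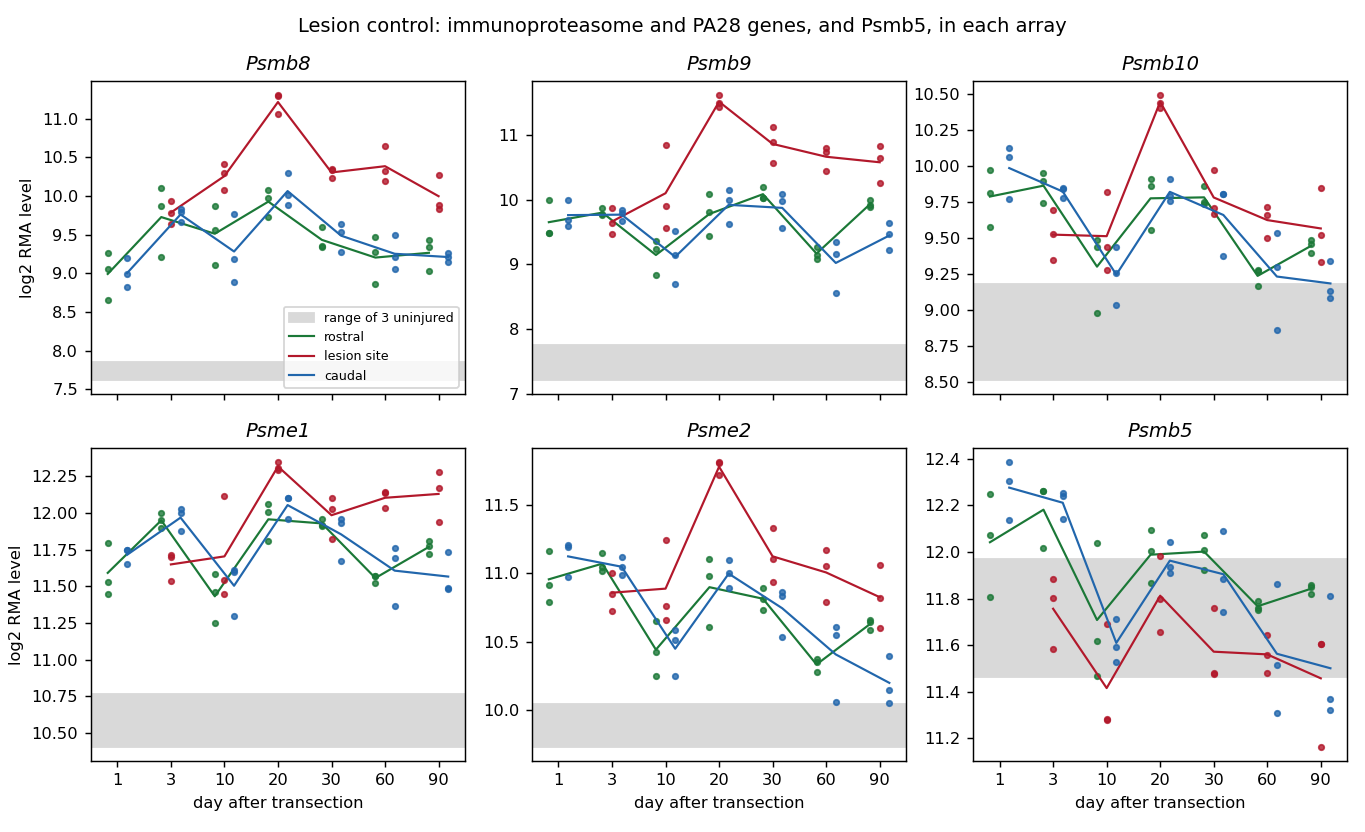
Log2 signal of Psmb8, Psmb9, Psmb10, Psme1, Psme2 and Psmb5 in LC cord by day after transection, with 1 colour per segment; points are arrays, lines join group means and the grey band is the range of the 3 uninjured arrays. Psmb8 is highest at the lesion site on day 20, at 11.06 to 11.30, against 7.62 to 7.86 in uninjured cord, while Psmb5 at the lesion site averages 11.42 to 11.81 against 11.46 to 11.97.

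The constitutive catalytic subunits rose only early and beside the cut, among the 9 LC comparisons. Psmb5, which carries the chymotrypsin-like site, measured 11.46, 11.84 and 11.97 in uninjured cord and averaged 11.42 to 11.81 at the LC lesion site, where none of its differences passed (0.00, -0.16 and -0.25, limma adjusted p of 0.99, 0.21 and 0.066). It rose early beside the cut, by 0.35 (adjusted p = 0.017) in rostral and 0.49 (adjusted p = 0.0025) in caudal cord, where it read 12.39, 12.14 and 12.30 on day 1. Psmb7, which carries the trypsin-like site, measured 11.35, 11.39 and 11.67 in uninjured cord and 10.86, 10.38 and 10.36 at the LC lesion site on day 10, with no overlap. It fell there by 0.64 (SE 0.137, adjusted p = 8.4e-05) on days 10 to 30 and by 0.60 (SE 0.145, adjusted p = 0.00041) on days 60 and 90, and rose by 0.38 (adjusted p = 0.028) in early caudal cord. These early rises rest on few uninjured arrays: without uninjured replicate 1 Psmb5 gave 0.21 (adjusted p = 0.23) in rostral and 0.34 (0.063) in caudal cord, and Psmb7 0.32 (0.12). The rostral Psmb5 rise was 0.09 (adjusted p = 0.33) with array weights and 0.13 (0.11) on the mean of its probe sets, and over arrays with low RT1-CE10 the caudal rises gave adjusted p of 0.05 (Psmb5) and 0.28 (Psmb7).

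Psmb8 and Psmb10 were each set against the subunit they replace, as the difference of the changes within an array. This made 18 exact two-sided permutation tests, adjusted together. Psmb9 was not tested in this way, since no probe set names Psmb6 alone. The change of Psmb8 minus that of Psmb5 was 1.30, 1.78 and 1.48 in rostral cord over the 3 periods, 2.08, 3.04 and 2.73 at the lesion site, and 1.19, 1.84 and 1.75 in caudal cord. All LC arrays were above all uninjured arrays, with adjusted p of 0.0306, except on day 3 at the lesion site, where 3 arrays against 3 cannot give a p under 0.1. For Psmb10 minus Psmb7 the values were 0.80, 0.60 and 0.40 in rostral cord, 0.96, 1.66 and 1.30 at the lesion site, and 0.63, 0.62 and 0.48 in caudal cord. The late rostral value (exact adjusted p = 0.0804) and the late caudal value (0.0571) did not pass, and both overlapped uninjured cord, as did the caudal value of days 10 to 30. The count of 14 that passed became 14 or 15 as single LC arrays were left out. With 2 uninjured arrays the smallest adjusted p that the 18 tests can give is 0.0804, so leaving out an uninjured array says nothing about these pairs.

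Most standard genes were higher than uninjured cord early beside the cut. On days 1 and 3, 23 of the 39 standard genes were higher and 3 lower in rostral LC cord than in uninjured cord, against 36% of all 12041 genes higher and 31.8% lower. In caudal cord 26 were higher and 1 lower, against 34.3% and 30.7%. The median difference of the 39 was 0.24 in rostral and 0.37 in caudal cord, and that of all genes 0.03 and 0.02. Of the 13 core genes, 11 were higher in rostral cord and 12 of 13 in caudal cord, and none lower, with median differences of 0.36 and 0.49. The 19S cap had 10 higher and 2 lower of 20 in rostral cord and 12 and 1 in caudal cord. Among the chaperones that assemble the core, Psmg2 and Psmg4 rose in both segments.

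Psma4, an alpha subunit, gave the largest called rise in rostral cord and was among the 3 largest in caudal cord. It measured 10.61, 10.50 and 10.73 in uninjured cord, and its difference was 0.66 (SE 0.0691, limma adjusted p = 9.8e-12) in rostral and 0.67 (adjusted p = 5.9e-09) in caudal cord. Psmb2, a non-catalytic beta subunit, and Psma1, another alpha subunit, followed in rostral cord with 0.62 and 0.61. Psmd8, a lid subunit of the cap, led in caudal cord: it read 10.33, 10.40 and 10.56 in uninjured cord and 11.27, 11.21 and 11.30 on day 1, a difference of 0.72 (SE 0.0757, adjusted p = 1.5e-11) over days 1 and 3. Psmg4 gave 0.71 with a larger SE of 0.231 (adjusted p = 0.0067), and 0.42 (0.15) without uninjured replicate 1.

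Psmc5, an ATPase of the cap, went the other way in both segments. It fell by 0.51 (limma adjusted p = 2.9e-07) in rostral and by 0.36 (adjusted p = 9.3e-05) in caudal cord. Psmd12, a lid subunit, fell by 0.25 (adjusted p = 0.011) in rostral cord, or by 0.19 (0.092) without uninjured replicate 1. Psme4, the PA200 activator, fell by 0.25 (adjusted p = 0.028) there on its brightest probe set, but the mean of its 3 probe sets gave a rise of 0.50, so its direction depends on the probe set.

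From day 10 the called standard genes beside the cut went both ways, core genes mostly up and cap genes mostly down. On days 10 to 30, 6 were higher and 8 lower in rostral cord (all genes: 29.1% and 31.3%) and 6 and 8 in caudal cord (29.2% and 32.5%). The rises were of core genes, with 5 in each segment, led by Psma4 at 0.36 and 0.33 and Psma1 at 0.29 and 0.33. Without uninjured replicate 2 the rostral Psma1 rise was 0.18 (limma adjusted p = 0.051). The falls were of cap genes, all 8 in each segment, led by Psmc5 at -0.60 and -0.66, Psmd12 at -0.43 and -0.39, and the ATPase Psmc1 at -0.34 and -0.38. Over all members 20 were called in rostral cord, and 13 without the 3 arrays that stood apart.

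On days 60 and 90, rostral cord had 2 standard genes higher and 7 lower (all genes: 24.9% and 28.7%), and caudal cord 0 and 10 (25.2% and 31.5%). In rostral cord Psma1 at 0.24 and Psma6 at 0.21 were the 2 above. Psmc5 fell by 0.59 and 0.62 in rostral and caudal cord, and Psmg3, a chaperone of the core, by 0.36 and 0.71. Without uninjured replicate 2 the late rostral calls were lost for Psma1 (0.14, adjusted p = 0.18), Psma6 (0.11, 0.19) and Psmg3 (-0.24, 0.23), and with beta-actin as a covariate Psmg3 gave -0.11 (0.58) in rostral and -0.18 (0.44) in caudal cord. The caudal day 90 arrays of Psmg3 read 8.25, 8.15 and 8.67 against 8.76, 9.37 and 9.29 in uninjured cord. Fitted with array weights, 8 members were higher and 21 lower in late rostral cord, and 6 higher and 28 lower in late caudal cord. The shares of all genes in that fit are not given here, so whether these counts are particular to the members cannot be read.

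The lesion site held more falls than rises among the standard genes after day 3, most of them of cap genes. On day 3, 13 of 39 standard genes were higher and 7 lower (all genes: 40.8% and 33.5%). On days 10 to 30 the counts were 3 and 18 (41.9% and 37.1%), and on days 60 and 90, 2 and 21 (40.4% and 35%). The core had 4, 3 and 2 of 13 genes higher and 0, 1 and 1 lower over the 3 periods. The cap had 8 higher and 6 lower of 20 on day 3, 0 and 13 on days 10 to 30, and 0 and 15 on days 60 and 90, with median differences of 0.12, -0.26 and -0.38. All genes had medians of 0.08, 0.07 and 0.06.

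The core genes above uninjured cord at the lesion site were alpha subunits: Psma1, Psma4, Psma5 and Psma7 on day 3, the first 3 of these on days 10 to 30, and Psma1 and Psma4 later. Psma4 measured 11.36, 11.26 and 11.43 on day 3, 11.35, 11.27 and 11.22 on day 20, and 10.79, 10.91 and 10.78 on day 90. Each of these values lay above the 3 uninjured ones. Its difference was 0.73 (SE 0.0725, limma adjusted p = 1e-10), 0.52 (adjusted p = 1.9e-09) and 0.19 (adjusted p = 0.0076) over the 3 periods. The late calls of Psma1 and Psma4 were lost without uninjured replicate 2, at 0.14 (adjusted p = 0.19) and 0.13 (0.091), and with array weights, at 0.11 (0.075) and 0.09 (0.06). Psmb7 was the core gene that fell.

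The ATPase ring did not move as one. Psmc5 measured 12.45, 12.42 and 12.48 in uninjured cord. Its lesion-site LC arrays read 11.32, 11.19 and 11.24 on day 3, 10.79, 10.92 and 10.82 on day 20, and 10.86, 10.95 and 10.82 on day 90, with no overlap. The difference was -1.20 (SE 0.108, limma adjusted p = 1.2e-11), -1.64 (SE 0.0879, adjusted p = 2.1e-17) and -1.60 (adjusted p = 2.3e-16). Psmc1 fell by 0.67, 1.07 and 1.13 and Psmc2 by 0.34, 0.52 and 0.51. Psmc6 gave -0.19 (adjusted p = 0.22) on day 3 and then fell by 0.38 and 0.36. Psmc3 rose by 0.26 (adjusted p = 0.02) on day 3 and gave 0.08 and 0.02 later, and Psmc4 gave 0.20 (adjusted p = 0.013), -0.03 (0.58) and -0.17 (0.015).

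Among the Psmd genes at the lesion site, Psmd12 fell most, by 0.59, 0.92 and 1.01 over the 3 periods. Psmd6, another lid subunit, fell by 0.43, 0.63 and 0.64. Psmd4, which binds ubiquitin chains, fell by 0.39 and 0.52 in the later periods, and Psmd14, the deubiquitinase of the lid, rose by 0.23 on day 3 and fell by 0.22 and 0.44 later. Psmd5, an assembly chaperone of the cap base, rose by 0.57 (limma adjusted p = 2.2e-05) on day 3. Psmd10, another of these chaperones, fell by 0.22, 0.45 and 0.48, and Psmd9, a further one, by 0.27 and 0.53 in the later periods. Psmf1, a proteasome inhibitor, fell by 0.33 on days 10 to 30 and by 0.22 later. Of the Psmg chaperones, Psmg2 rose by 0.25 on day 3, and Psmg1 and Psmg3 fell by 0.32 and 0.49 on days 10 to 30.

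Neuronal markers averaged lower than uninjured cord in all LC groups, by 0.70 to 1.47 in the LC segments beside the cut and by 3.27 to 5.29 at the lesion site. Their part in the lower values of the cap genes was not tested. Of the 2 genes outside both groups, Psmc3ip was higher than uninjured cord in all 9 comparisons, by 0.32 to 0.97, and Psme3ip1 in late caudal cord alone, by 0.15.

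**Figure D2:**
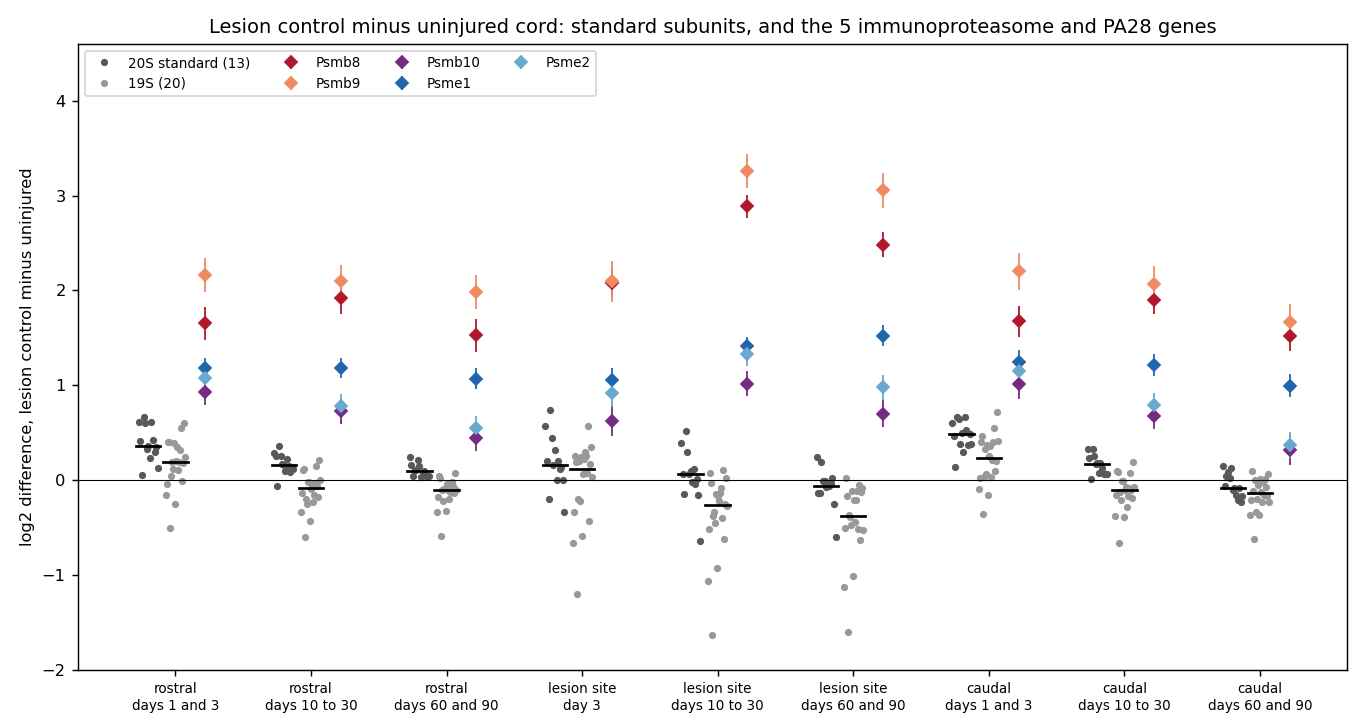
Log2 difference of LC from uninjured cord in 3 segments and 3 periods; grey points are the 13 core genes (dark) and 20 cap genes (light) with a black line at each median, and coloured diamonds are the group of 5 with bars for the standard error. The diamonds lie above 0 throughout, and the lowest cap points at the lesion site on days 10 to 30 are Psmc5, Psmc1 and Psmd12 at -1.64, -1.07 and -0.92.

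Levels also changed with time after injury within LC cord. In an F test over days, 33 of 39 standard genes passed in rostral cord (all genes: 72.5%), 30 at the lesion site (70.6%) and 38 in caudal cord (73.3%), and all of the group of 5 passed in each segment. The strongest standard genes were Psmd11, a lid subunit, in rostral cord (F = 25.4, limma adjusted p = 6.2e-12), Psmd14 at the lesion site (F = 20.8, adjusted p = 4.2e-08) and Psmd8 in caudal cord (F = 25.3, adjusted p = 5.1e-12). Most standard genes were highest at the first sampling: 32 of 39 on day 1 in caudal cord, 20 on day 1 and 16 on day 3 in rostral cord, and 29 on day 3 at the lesion site. The 5 immunoproteasome and PA28 genes were all highest on day 20 at the lesion site. With day 20 left out, Psmb8, Psmb9 and Psme1 still changed over days there, and Psmb10 (adjusted p = 0.56) and Psme2 (adjusted p = 0.38) did not pass. On the mean of its probe sets, with all days kept, Psme1 did not pass there (limma adjusted p = 0.15).

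The class medians followed this course. For the core, the median LC difference from uninjured cord in caudal tissue was 0.52 on day 1, 0.44 on day 3, 0.05 on day 10, 0.29 on day 20, 0.21 on day 30, -0.06 on day 60 and -0.08 on day 90. All 13 core genes were above their uninjured mean there on day 1. For the cap it was 0.30, 0.17, -0.21, -0.11, 0.00, -0.21 and -0.09 on the same days. The cap median at the lesion site went from 0.12 on day 3 to -0.30 on day 10 and -0.41 on day 90, and on day 60 none of the 20 cap genes was above its uninjured mean. The median of the group of 5 there was 1.06, 1.11, 1.85, 1.39, 1.51 and 1.54 from day 3 to day 90.

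**Figure D3:**
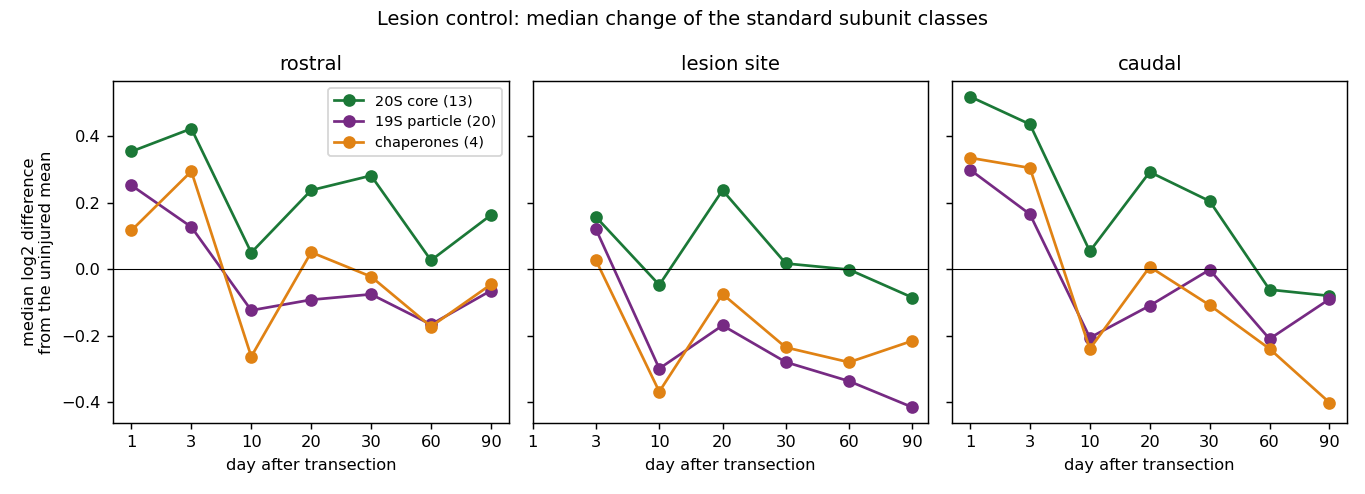
Median over genes of the LC difference from the uninjured mean (log2) by day after transection, for the 13 core genes, 20 cap genes and 4 chaperones of the core, in each segment. The caudal core median goes from 0.52 on day 1 to -0.08 on day 90, and the lesion-site cap median from 0.12 on day 3 to -0.41 on day 90.

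Compared directly with the neighbouring LC segments, the lesion site had higher signals of all 5 genes from day 10, and on day 3 most of the 5 did not differ past the threshold. On day 3, 1 standard gene was higher and 16 lower at the lesion site than beside it (all genes: 32% and 30.1%). In the group of 5, Psmb10 (-0.32, limma adjusted p = 0.045) and Psme1 (-0.31, 0.016) were lower, and Psmb8 (0.04, 0.84), Psmb9 (-0.12, 0.59) and Psme2 (-0.20, 0.19) did not differ past the threshold. Over arrays with low RT1-CE10 the Psmb10 and Psme1 differences did not pass (adjusted p of 0.27 and 0.23).

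On days 10 to 30 all of the group of 5 were higher at the lesion site, while 2 standard genes were higher and 25 lower (all genes: 45.5% and 36.2%). Psmb8 was higher by 0.98 (SE 0.0944, limma adjusted p = 1.4e-17), Psmb9 by 1.17 (SE 0.109, adjusted p = 1.7e-18), Psme2 by 0.54, Psmb10 by 0.32 and Psme1 by 0.21. Without day 20, Psmb8 (0.85), Psmb9 (0.93) and Psme2 (0.39) still passed, and Psmb10 (0.15, adjusted p = 0.17) and Psme1 (0.16, adjusted p = 0.065) did not. Psmc5 was lower by 1.01 and Psmb7 by 0.73, and Psma4 was higher by 0.17.

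On days 60 and 90 the 5 were again all higher, by 0.96 (Psmb8), 1.23 (Psmb9), 0.32 (Psmb10), 0.49 (Psme1) and 0.52 (Psme2), and no standard gene was higher and 19 were lower (all genes: 43.2% and 33.8%). Psmc5 was lower by 1.00, Psmc1 by 0.78, Psmd12 by 0.66 and Psmb7 by 0.54. Rostral and caudal LC cord did not differ past the threshold in any of the 46 members (all genes: 0.341% higher and 0.0747% lower rostrally), with Psmb8 at 0.00 and Psmb9 at 0.09 (adjusted p = 0.92). The standard genes ranged from -0.06 for Psma3 to 0.13 for Psmg4 in that comparison.

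Psmb9 and Psmb8 parted in the groups with a high RT1-CE10 signal, and also in some lesion-site groups without it. The Psmb9 change from uninjured cord minus the Psmb8 change was 0.26 to 1.14 (median 0.71) in the 17 groups whose arrays were all above 9 for RT1-CE10. It was -0.31 to 0.51 (median -0.01, above 0 in 14) in the 34 groups with none above 9, and 0.02 to 0.44 in the 4 mixed groups. LC arrays were all above 9 on days 1, 30 and 90 beside the cut and on days 30 and 90 at the lesion site, NT3 arrays were so on day 30 only, and ET arrays on days 1, 30 and 60. Of the other LC groups, those of day 3 in all segments and of day 20 at the lesion site were mixed, so RT1-CE10 was not balanced between treatments.

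**Figure D4:**
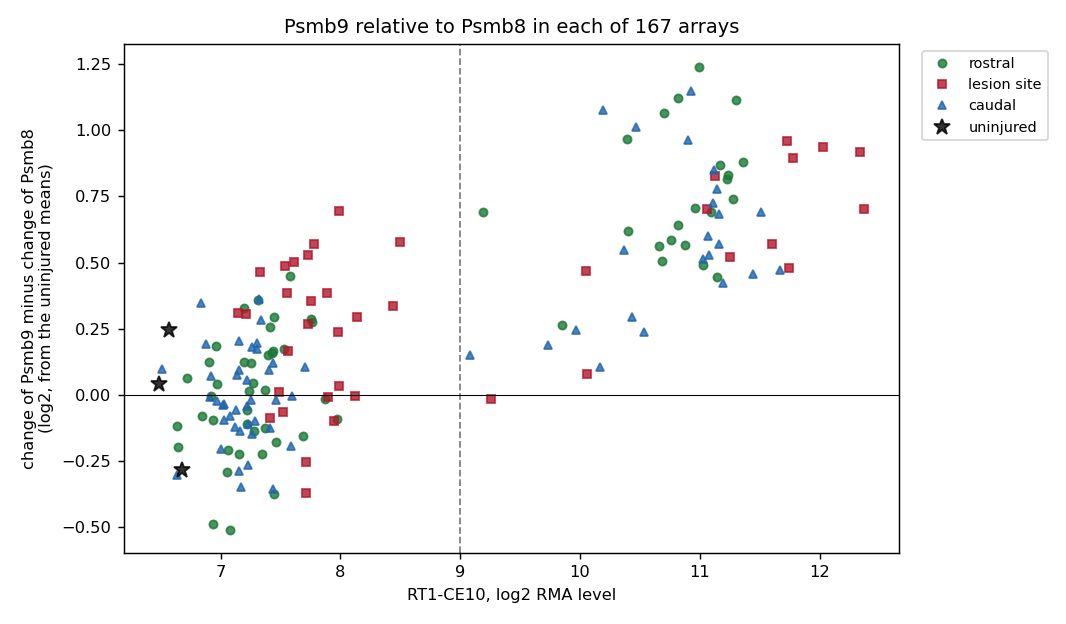
Change of Psmb9 minus change of Psmb8 from the uninjured means (log2) in each array, against the RT1-CE10 signal (log2) of the same array, with symbols for the segment and a dashed line at 9. Means of groups with all arrays to its right are 0.26 to 1.14, and those of groups with none are -0.31 to 0.51.

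NT3 tubes gave lower immunoproteasome signals than LC at the lesion site over all days, and the sign turned with the day. Over all days Psmb8 fell by 0.33 (SE 0.0603, limma adjusted p = 5.2e-05), Psmb9 by 0.30 (SE 0.0876, adjusted p = 0.0061) and Psme2 by 0.15 (SE 0.0621, adjusted p = 0.048), and Psmb10 (-0.10, 0.23) and Psme1 (-0.01, 0.9) did not pass. The call for Psme2 was lost without any one of 26 of the 42 arrays in the fit. Without day 20 none of the 3 passed: Psmb8 gave -0.15 (adjusted p = 0.11), Psmb9 -0.10 (0.49) and Psme2 -0.05 (0.66). Arrays with low RT1-CE10 left days 3, 10, 20 and 60, with a single LC array on day 3 (replicate 1) and on day 20 (replicate 3). Over those days Psmb8 gave -0.40, Psmb9 -0.33 and Psme2 -0.18.

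The difference between NT3 and LC changed with day for all 5 genes: Psmb8 with F = 28.1 (limma adjusted p = 2.9e-08), Psmb9 with 13.7 (1.2e-05), Psme2 with 8.62 (0.00034), Psmb10 with 8.30 (0.00043) and Psme1 with 8.09 (5e-04). Of all genes 50.6% passed this test. All 5 passed also without day 20. With low RT1-CE10 only, single LC arrays were left on days 3 and 20, so that setting says little on the change with day. On day 3 Psmb8 read 10.87, 10.50 and 11.07 with NT3 and 9.79, 9.63 and 9.94 in LC, so every NT3 array was above every LC array, and the empty tube gave 10.26, 10.23 and 10.04. The day 3 difference from LC was 1.03 for Psmb8, 1.07 for Psmb9, 0.71 for Psmb10, 0.62 for Psme1 and 0.61 for Psme2.

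On day 20 the order was turned. Psmb8 read 9.97, 9.99 and 9.98 with NT3 and 11.29, 11.30 and 11.06 in LC, a difference of -1.24 (SE 0.148). Psmb9 read 10.14, 10.31 and 10.22 against 11.61, 11.49 and 11.43, a difference of -1.29 (SE 0.215). Psmb10, Psme1 and Psme2 gave -0.66, -0.38 and -0.68. On day 60 Psmb8 read 9.72, 9.28 and 9.61 with NT3 and 10.32, 10.19 and 10.65 in LC, and the differences of the 5 genes were -0.85, -0.83, -0.44, -0.35 and -0.49. By day 90 they were -0.02, -0.24, -0.01, 0.00 and -0.01.

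The groups can also be read by whether their arrays overlap. On day 3, 5 of 5 and 12 of 39 standard genes had every NT3 array above every LC array, and 4 standard genes the reverse (all genes: 16% and 16.3%). On day 20 none of the 5 was above and all 5 below, with 4 standard genes each way (20% and 25.1%). On day 60 again all 5 were below, with 5 standard genes above and 12 below (17.4% and 28.7%). The other days did not part the 5 in this way: 1 was below on day 10, and none was apart on days 30 and 90. Standard genes above and below were 2 and 8 on day 10, 4 and 1 on day 30, and 12 and 3 on day 90. The shares of all genes on those days are not given here.

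**Figure D5:**
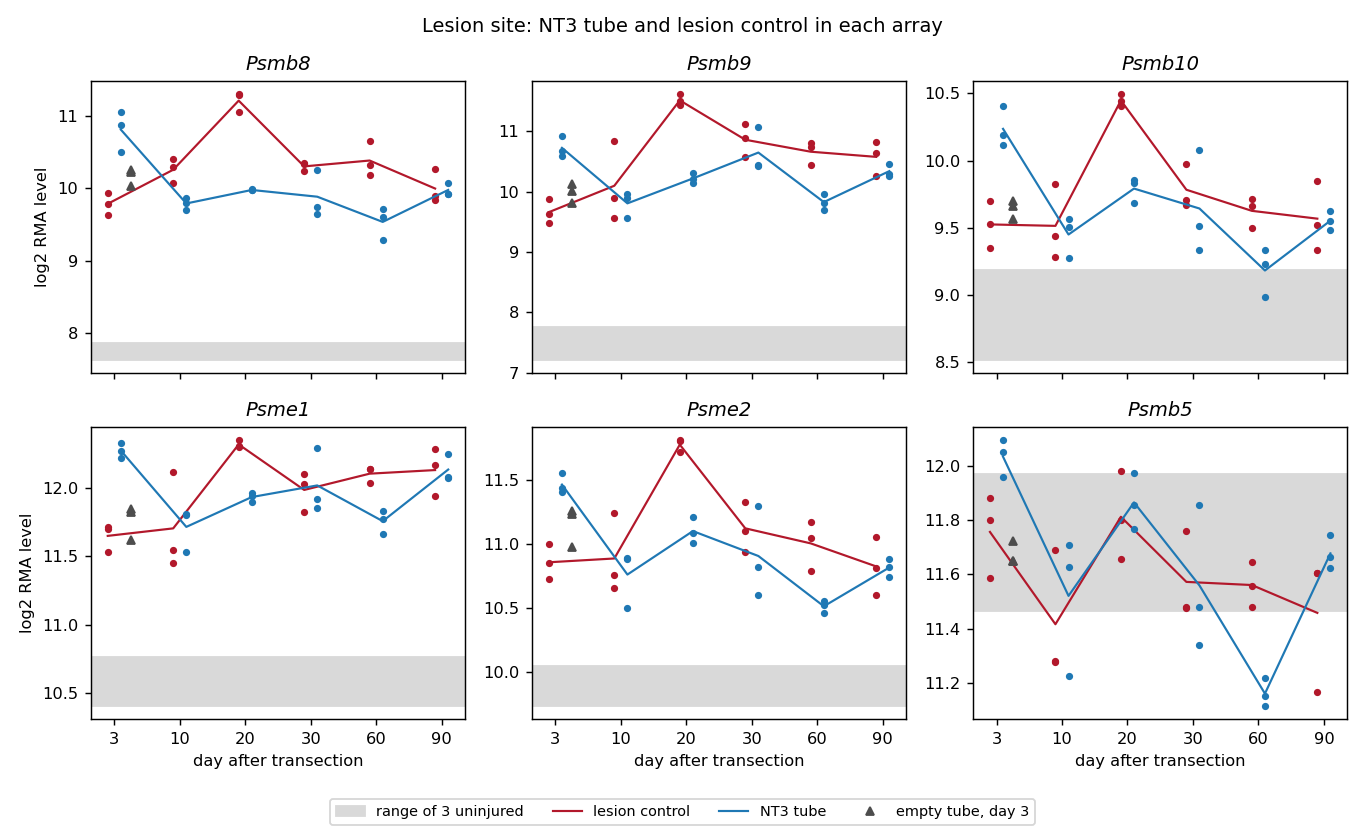
Log2 signal of the group of 5 and of Psmb5 at the lesion site by day after transection, with LC in red, NT3 in blue and the empty tube on day 3 as grey triangles; points are arrays, lines join group means and the grey band is the range of the 3 uninjured arrays. Psmb8 with NT3 lies above LC on day 3 (means 10.82 and 9.79) and below it on day 20 (9.98 and 11.22).

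T cell markers took the same course: their mean above uninjured cord was 1.85 with NT3 and 1.21 in LC on day 3, 1.46 and 3.24 on day 20, and 0.91 and 1.91 on day 60. Over all days all 6 were lower with NT3, with a median difference of -0.78. Macrophage markers stood at 3.17 and 2.58 on day 3 and at 1.96 and 3.07 on day 20, and 4 of 7 were lower with NT3 over all days. Muscle markers were 2.79 to 4.44 above uninjured cord with NT3 and 0.42 to 2.38 in LC, and all 6 were higher with NT3. The part of these cell types in the differences was not tested.

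Among the 39 standard genes at the lesion site, 5 were higher and 2 lower with NT3 than in LC, against 19% and 22.9% of all genes, with a median of 0.04. Psme4 was higher by 0.18 on its brightest probe set and lower by 0.05 (limma adjusted p = 0.36) on the mean of its 3 probe sets. Psma3, an alpha subunit, was higher by 0.15 (adjusted p = 0.0029) and Psmd6 by 0.13 (0.0023), and Psmd2 and Psmd3, base and lid subunits of the cap, were lower by 0.20 (0.00016) and 0.14 (0.0011). Psmb5 gave 0.04 (adjusted p = 0.61) and Psmb7 0.14 (0.099). In the test by day, 8 standard genes passed: Psmd10, Psma7, Psma5, Psmb3, Psmg1, Psmb2, Psmd7 and Psmd14. Psmd10 led with F = 6.65 (adjusted p = 0.0015). It read 10.44, 10.42 and 10.53 with NT3 and 10.86, 10.88 and 10.90 in LC on day 3, a difference of -0.42, and gave 0.26 on day 10 and 0.24 on day 30. Psmb5 read 11.22, 11.15 and 11.12 with NT3 and 11.48, 11.65 and 11.56 in LC on day 60, with no overlap, but did not pass by day (F = 2.90, adjusted p = 0.055).

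In rostral cord Psmb9 was the only member that differed between NT3 and LC over all days, at -0.38 (SE 0.0774, limma adjusted p = 0.0034), where 1.15% of all genes were higher and 1.61% lower. Psmb8 gave -0.09 (0.51), Psmb10 -0.16 (0.14), Psme1 -0.08 (0.34) and Psme2 -0.13 (0.21). The difference changed with day for 12 members (all genes: 28.2%), among them Psmb9 (F = 5.86, adjusted p = 0.0024), Psme2 (F = 3.22, 0.04), Psmd10 (F = 7.67, 0.00048), Psmb7 (F = 4.69, 0.0079) and Psmd14 (F = 4.02, 0.016). Psmb9 read 9.20, 8.69 and 8.82 with NT3 on day 1 and 9.48, 9.48 and 9.99 in LC. On day 90 it read 8.54, 8.72 and 8.52 with NT3 and 9.88, 9.91 and 10.00 in LC, a difference of -1.34 (SE 0.205).

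On day 60 rostral cord held the opposite order for some of the 5 genes: NT3 minus LC was 0.12 for Psmb8, 0.11 for Psmb9, 0.19 for Psmb10, 0.15 for Psme1 and 0.19 for Psme2. Every NT3 array was above every LC array for Psmb10, Psme1 and Psme2 and for 6 standard genes, and below for 4 standard genes (all genes: 8.03% above and 17% below). On rostral days 1 and 20, 1 of the 5 was below, and on days 3, 10 and 30 none was apart. The shares of all genes on those days are not given here.

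Day 90 in rostral cord held lower values of the other 4 genes, by 0.36 (Psmb8), 0.56 (Psmb10), 0.50 (Psme1) and 0.65 (Psme2). All 5 and 19 standard genes had every NT3 array below every LC array then, and 2 standard genes every NT3 array above (all genes: 20% below and 14.8% above). Psmd10 read 10.81, 10.82 and 10.73 with NT3 and 11.16, 11.21 and 11.18 in LC. RT1-CE10 was above 9 in all LC arrays of that day and in none of the NT3 arrays. Over arrays with low RT1-CE10 the rostral Psmb9 difference over all days was -0.09 (limma adjusted p = 0.81), and Psmb9 (0.81), Psme2 (0.5), Psmb7 (0.97) and Psmd10 (0.058) did not pass by day. Psmd14 did not pass by day on the mean of its probe sets (0.2).

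In caudal cord none of the 46 members differed between NT3 and LC over all days (all genes: 5.91% higher and 3.85% lower), with Psmb9 at -0.20 (limma adjusted p = 0.12). None changed with day either (all genes: 7.18%), with Psmb9 at F = 2.76 (adjusted p = 0.12).

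In rostral cord ET had 5 standard genes lower and none higher than LC (all genes: 14.9% lower and 7.9% higher), led by Psmd1, a scaffold of the cap base, at -0.20, Psmc5 at -0.15 and Psmc1 at -0.13, and no gene of the group of 5 passed. Against ET, NT3 cord had Psmb9 lower by 0.31 (limma adjusted p = 0.0022) and 5 standard genes higher and 1 lower (all genes: 17.4% and 12.8%), led by Psmc5 at 0.15. Over arrays with low RT1-CE10 that Psmb9 difference was -0.24 (adjusted p = 0.12).

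In caudal cord 3 standard genes were lower with ET than in LC (all genes: 1.79% lower and 1.72% higher): Psma5 (-0.14), Psma1 (-0.13) and Psmd8 (-0.13). This count ran from 0 to 14 as single arrays were left out. NT3 had 13 standard genes higher than ET and none lower (all genes: 4.65% and 3.73%), with Psmb7 at 0.21, Psmb2 at 0.18 and Psmg1 at 0.16. After quantile scaling 4 passed. No gene of the group of 5 passed in either comparison.

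At the lesion site on day 3, 7 standard genes were lower and none higher with ET than in LC (all genes: 15.8% lower and 7.41% higher), led by Psmd10 (-0.38, limma adjusted p = 0.0057), Psmc5 (-0.37, 0.012) and Psmd8 (-0.37, 0.0032). After a shift of each array to a common 75th percentile 3 members were higher and 0 lower, so the direction of that count depends on the scaling. Psmb8 was at 0.39 (adjusted p = 0.054) and passed after quantile scaling, at 0.48 (adjusted p = 0.017). Psmb9 gave 0.32 (0.29).

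Genes of the class I pathway also rose. Of 15 tested genes of class I peptide loading and presentation, 13 or 14 were higher than uninjured cord in each of the 9 LC comparisons, and 1, the chaperone Canx, was lower. Of all genes, 24.9% to 41.9% were higher and 28.7% to 37.1% lower in those comparisons. Their median differences were 1.39, 1.85 and 1.51 at the lesion site, 0.90, 0.84 and 0.69 in rostral cord and 0.90, 0.86 and 0.73 in caudal cord. Tap1, the neighbour of Psmb9, rose by 2.03, 2.70 and 2.32 at the lesion site, Tap2 by 2.16, 2.74 and 2.69, tapasin (Tapbp) by 1.04, 1.68 and 1.44, and B2m, the light chain of class I molecules, by 0.49, 0.80 and 0.73. With NT3, 11 of the 15 were lower than in LC at the lesion site and none higher (all genes: 22.9% and 19%).

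The list of the interferon pathway had 20 tested genes, receptors and kinases among them. At the lesion site 14, 18 and 18 were higher over the 3 periods, with 1, 0 and 0 lower. In the segments beside it 12 to 18 were higher and none lower. Of all genes, 40.4% to 41.9% were higher and 33.5% to 37.1% lower at the lesion site. Beside it the shares were 24.9% to 36% and 28.7% to 32.5%. Irf1, an interferon-induced transcription factor, rose by 2.20 on day 3 and 2.61 on days 60 and 90 at the lesion site. Nlrc5, the class I transactivator, rose there by 1.16, 2.03 and 1.81 over the 3 periods. The Nlrc5 signal was above the 40th percentile of the array in 7 arrays only, so it was low in most arrays. NT3 minus LC at the lesion site was higher for 2 and lower for 8 of the 20, against 19% and 22.9% of all genes. The 15 tested genes of the wider ubiquitin and proteasome machinery had 3, 2 and 3 higher and 7, 8 and 6 lower at the lesion site, against 40.8%, 41.9% and 40.4% of all genes higher and 33.5%, 37.1% and 35% lower. Among them Pomp, the maturation factor of the core, rose by 0.43 (limma adjusted p = 0.019) in early caudal cord and gave 0.32 (0.063) in early rostral cord. Usp14, a deubiquitinase of the cap, fell by 0.74 at the lesion site on days 10 to 30.

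Across the 56 group means the members formed blocks. Pearson's r had a median of 0.79 among the 13 core genes (0.07 to 0.95 over 78 pairs), 0.68 among the 20 cap genes (-0.13 to 0.98 over 190 pairs) and 0.57 between core and cap. Among the group of 5 it was 0.79 (0.65 to 0.95 over 10 pairs), and between the 5 and the standard genes 0.10 (-0.72 to 0.85 over 195 pairs). Psmb10 and Psme2 were closest, at 0.95, and Psmb10 stood nearer to Psmb5 (0.65) than Psmb8 did (0.06). The points share arrays, segments and days, so these values are descriptions.

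The genes outside the members whose 56 group means were most like Psmb8 were Hcst (Pearson's r = 0.918), Map4k1 (0.909), Tmem179b (0.907), Gpsm3 (0.907), Ifi35 (0.904), Tgfb1 (0.901), Casp1 (0.899) and Sin3b (0.898). Those most like the mean of the 13 core genes were Rbm8a (0.961), Erh (0.946), Mrpl41 (0.946), Pop7 (0.943), Snrpd3 (0.932), Mrpl21 (0.928), Pfdn4 (0.928) and Grpel1 (0.928).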

How the data were processed

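The authors deposited log2 expression values made with RMA; GCOS and Affymetrix Expression Console are also named, per the submitters' processing notes. Versions, genome build and annotation release are not given in the sources used here. Of 31099 probe sets, 57 were controls, 20832 had 1 gene symbol, 436 several and 9780 none; a probe set with several, such as those of Psmb6 and Psme3, names no gene here. The probe set with the highest mean stood for each gene. Genes above their array's 40th percentile in at least 3 arrays were tested. Each segment was fitted with limma 3.58.1 (R 4.3.3), 1 mean per group of treatment and day, with the uninjured arrays included, and p-values were adjusted by Benjamini-Hochberg over all 12041 genes at 0.05. The fit was tested on simulated data. The number of arrays limits the precision.

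Exchange pairs used exact two-sided permutation tests. Promoter letters came from RefSeq GRCr8, and all 46 symbols are current there. Genes were named as the 3 largest passing standard members in each direction per comparison, with Psmb8, Psmb9, Psmb10, Psme1, Psme2, Psmb5 and Psmb7, and the 8 most alike genes; others named were chosen after their values were seen. The members and gene lists were chosen with earlier results of these data known, and the 3 arrays that stood apart were named so in earlier work. Alternatives covered the filter, scaling, probe set choice, array weights, covariates, the samples fitted and single arrays left out. The settings with low RT1-CE10 only, without lesion-site day 20, and leaving out arrays for the exchange pairs were chosen after seeing the data. Same-numbered replicates of different groups had a median correlation of deviations of 0.063 over 138 pairs, 64 of them over 0.1, against -0.014 over 282 pairs with different numbers, so numbers were not taken to pair samples.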

Additional observations from a re-analysis of the deposited data

Results flagged for a closer look

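For the 10 members given here, the difference between NT3 and LC itself changed with day, by limma's F test adjusted over all genes. At the lesion site the adjusted p was 2.9e-08 for Psmb8, 1.2e-05 for Psmb9, 0.00043 for Psmb10, 5e-04 for Psme1 and 0.00034 for Psme2. Among the standard genes there it was 0.0015 for Psmd10, 0.012 for Psma7 and 0.019 for Psma5. In rostral cord it was 0.0024 for Psmb9, 0.04 for Psme2, 0.0079 for Psmb7, 0.00048 for Psmd10 and 0.016 for Psmd14. In all, 13 of the 46 members passed at the lesion site, where 50.6% of all genes did. In rostral cord 12 passed, where 28.2% of all genes did, so passing this test was not particular to the members. Psmb9, Psme2, Psmd10 and Psmd14 passed in both.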

How the results depend on the processing

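Values here are counts of the 46 members that passed, unless said otherwise. The shares of all genes under these settings are not given here, so the counts do not show whether members and other genes changed alike. With RT1-CE10 as a covariate, rostral LC against uninjured cord gave 17 early, 10 on days 10 to 30 and 6 late; rostral NT3 against LC gave 0, by day 4, and NT3 against ET 1. The lesion site gave 19 late, 3 for NT3 against LC and 3 for ET on day 3, and caudal cord 11 on days 10 to 30, 4 late, and 0 for NT3 against ET and for ET against LC. Over arrays with low RT1-CE10, rostral cord gave 0 for NT3 against LC, 1 by day, 2 for NT3 against ET and 0 for ET against LC. The lesion site gave 5 for NT3 against LC and 0 for ET, caudal cord 28 over days, 1 for NT3 against ET and 0 for ET against LC, and the lesion site against its neighbours 5 on day 3 and 20 on days 10 to 30. Array weights gave 29 in late rostral cord, 3 for rostral NT3 against LC, 39 by day, 14 for NT3 against ET and 8 for ET against LC. They gave 20 and 35 (by day) for NT3 against LC at the lesion site, and in caudal cord 34 late, 4 for NT3 against LC, 33 by day and 13 for ET against LC.

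Without the 3 arrays that stood apart, rostral days 10 to 30 gave 13 and caudal ET against LC 6. The exchange pairs gave 0, which 2 uninjured arrays fix in advance. Groups fitted alone gave 8 for rostral ET against LC, 1 for lesion-site ET, 8 in late caudal cord, 1 for caudal NT3 against LC by day and 0 for caudal ET against LC. A shift to the 75th percentile gave 3 for lesion-site ET and 10 for caudal ET against LC. Caudal ET against LC gave 5 after quantile scaling, 6 with the 60th percentile filter, 11 in 1 fit of all segments and 7 with beta-actin as a covariate. Quantile scaling gave 4 for caudal NT3 against ET, beta-actin 1 for caudal NT3 against LC, and omitting day 20, 5 for lesion-site NT3 against LC.

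Leaving out single arrays gave ranges of 13 to 21 for rostral days 10 to 30, 1 to 2 for rostral NT3 against LC, 6 to 19 for it by day, 4 to 8 for rostral NT3 against ET and 5 to 9 for rostral ET against LC. At the lesion site NT3 against LC by day ran from 8 to 18 and ET from 3 to 9. In caudal cord NT3 against LC ran from 0 to 2, NT3 against ET from 5 to 18 and ET against LC from 0 to 14, and the lesion site against its neighbours on day 3 from 10 to 21. The exchange pairs ran from 14 to 15 with LC arrays left out, and gave 0 with an uninjured array left out, where the smallest adjusted p possible is 0.0804.

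Signs turned in few cases. Psme4 in early rostral cord was 0.50 on the mean of its probe sets and 0.11 with the RT1-CE10 covariate, and -0.050 for NT3 against LC at the lesion site on that mean. Psmb5 and Psmb7 were both -0.14 in late rostral cord with array weights. With the replicate block all 27 counts stayed within 1.5 times, for example 33 in early rostral cord and 8 for lesion-site NT3 against LC, where Psme2 was -0.16 (adjusted p = 0.061). The block changed 1 other call of the group of 5, lesion-site ET against LC for Psmb8 (0.049). The exchange of Psmb9 for Psmb6 was not run, since no probe set names Psmb6 alone. Each group holds 2 or 3 arrays and the uninjured cord 3, which limits small differences.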

Other observations

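Psme4, the PA200 activator, had 2 further probe sets above the filter in all arrays, and they did not follow the brightest one. Over LC days 10 to 30 at the lesion site they stood 1.13 and 1.18 above uninjured cord, while the probe set used stood at -0.47. In early caudal cord both gave 0.79, against -0.16. Their correlation with the probe set used was -0.26 and -0.23 across group means. Which transcripts each probe set reads was not analysed here.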
